A study of Homo sapiens with 3 samples.

Results

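The exon junction complex is a group of proteins that the spliceosome leaves on an mRNA just upstream of each exon-exon junction. Its genes were taken as the rows named EIF4A3, RBM8A, MAGOH, MAGOHB, CASC3, RNPS1 and PYM1 in the deposited gene tables, outside alternate and unplaced references, which gave 7 of 43389 gene rows. Their mRNA levels were measured by RNA-seq of polyA RNA in 3 libraries, replicates 1 to 3, all with the genotype WT and all labelled as HepG2, an established line of human liver cancer cells. There was 1 condition, so the data give the levels of these genes, their ratios within a library and their spread between libraries. The labels do not say whether the replicates came from separate cultures, so the spread may be technical.

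The core of the complex is the DEAD-box RNA helicase EIF4A3, which clamps onto the mRNA and is locked there by a heterodimer of RBM8A (also called Y14) with MAGOH or its paralog MAGOHB. CASC3 (also called MLN51 or Barentsz) binds EIF4A3, RNPS1 joins at the periphery, and PYM1 binds the heterodimer and takes the complex apart on ribosomes. The complex promotes mRNA export, and where it remains downstream of a stop codon it helps to recruit the nonsense-mediated decay factors. It is also known to hold back m6A methylation close to exon junctions, which ties it to METTL3, the m6A methyltransferase whose splice variants the study investigated.

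TPM is a level per gene length that adds up to the same total in every library, while the coverage column is the mean read depth along the gene and moves with the depth of the library. Depth itself is unknown, since no counts are given. The maximum of coverage divided by FPKM, which follows depth, ran from 11.5 in replicate 3 to 13.3 in replicate 1. Of 5 genes for proteins that hepatocytes secrete, SERPINA1, APOB, APOA1 and ALB were listed at 0 in every library and AFP reached no more than 0.0248 TPM. The means of the epithelial genes KRT8 and KRT18 were 2610 and 2017 TPM, and that of the mesenchymal gene VIM was 694 TPM. The defining secreted products of the labelled cell type were thus at or near 0, and the values below hold for libraries labelled HepG2. The blood markers were below 1 TPM, with PTPRC listed at 0 and HBB at no more than 0.819 TPM.

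MAGOH and MAGOHB fill the same place in the complex, and the likeness of their sequences decides how far reads can tell them apart. The MANE Select transcripts of GENCODE v44 encode 146 and 148 amino acids, of which 145 of 146 aligned residues, or 99.3%, are identical. They differ by 2 additional residues after the first methionine of MAGOHB and by E2A, counted from the first methionine of MAGOH with the residue of MAGOH given first. The first 36 coding bases, with the codons for these residues in capitals, lie in exon 1 of each gene, on the minus strand at chr1:53238413-53238448 and chr12:10613497-10613532 of GRCh38.
MAGOH: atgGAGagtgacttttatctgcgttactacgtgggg
MAGOHB: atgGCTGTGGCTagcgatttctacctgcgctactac

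The coding sequences are less alike than the proteins, with 382 of 441 aligned bases identical, or 86.6%. Over the 97 stretches of 150 bases that begin at a codon and have no gap, which is the length of 1 sequencing read, 15 to 25 bases differed. The stretch with the fewest differences is given below with the 15 differing bases in capitals. It joins exons 1 to 3 and runs from codon 28 to 77 of MAGOH (chr1:53233569-53238367, minus strand, introns removed) and from codon 30 to 79 of MAGOHB (chr12:10609858-10613445, minus strand, introns removed). All 15 differences are synonymous.
MAGOH: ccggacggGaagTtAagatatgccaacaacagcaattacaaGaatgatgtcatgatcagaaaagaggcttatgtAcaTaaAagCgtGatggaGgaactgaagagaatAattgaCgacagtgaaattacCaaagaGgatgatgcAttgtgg
MAGOHB: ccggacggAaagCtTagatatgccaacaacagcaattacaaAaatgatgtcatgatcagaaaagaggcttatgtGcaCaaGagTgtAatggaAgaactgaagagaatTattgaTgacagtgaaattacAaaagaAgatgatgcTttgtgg

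The longest identical run of the MAGOH and MAGOHB coding sequences is 38 bases, shorter than 1 read. No window of 150 bases of the MANE Select transcripts of MAGOH, MAGOHB, EIF4A3, CASC3 or PYM1 was found, on either strand, in an annotated transcript of another gene among 252835 transcripts. For RBM8A, 636 of 4760 such windows, or 13.4%, were shared with other genes, 445 of them with GNRHR2 and others with the pseudogene GNRHR2P1. For RNPS1, 52 of 1802 windows, or 2.89%, were shared with the pseudogene RNPS1P1. The levels of RBM8A and RNPS1 therefore carry an uncertainty from shared reads that the other members do not show at this window length. With windows of 75 bases, 25 of 2532 windows of MAGOHB, or 0.987%, were shared with the pseudogene MAGOH3P, and MAGOH shared 0 of 582. At this length the shared part rose to 1001 of 4835 windows, or 20.7%, for RBM8A and to 282 of 1877, or 15.0%, for RNPS1, while EIF4A3 shared 5 of 2450, or 0.204%, and CASC3 and PYM1 shared 0.

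EIF4A3 has a pair of close relatives, EIF4A1 and EIF4A2, which act in translation initiation and not in the exon junction complex. EIF4A3 is 68.2% identical to EIF4A1 and 69.8% identical to EIF4A2 over the aligned residues, while EIF4A1 and EIF4A2 are 90.1% identical to each other. The stretches below, all in exon 6, encode the DEAD box for which this helicase family is named, with 9 bases on either side, and the capitals mark bases that differ from EIF4A3. They lie at chr17:80139677-80139706 (minus strand), chr17:7577076-7577105 (plus strand) and chr3:186786184-186786213 (plus strand). EIF4A1 differs from EIF4A3 at 5 of these 30 bases and EIF4A2 at 2.
EIF4A3: ttggttttggatgaagctgatgaaatgttg
EIF4A1: ttTgtACtggatgaagctgaCgaaatgttA
EIF4A2: ttTgttttggatgaagcAgatgaaatgttg

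All 7 genes reached 10 TPM in each of the libraries, as did 8146 of all gene rows. Their median mean level was 70.7 TPM, against 15.4 TPM for the 13785 genes whose mean was 1 TPM or more, called expressed genes here. Percentiles below are among these expressed genes. RNPS1 stood highest with a mean of 261 TPM and MAGOHB lowest with 22.5 TPM. In RNA from a whole culture, fewer cells that express a gene and less of its RNA per cell cannot be told apart. In the descending order of mean TPM, which was RNPS1, EIF4A3, MAGOH, RBM8A, PYM1, CASC3 and MAGOHB, each gene exceeded the next in 3 of 3 libraries, and the values of neighbouring genes did not overlap between libraries in TPM as deposited. After median-of-ratios scaling, which sets the libraries to the same median gene, PYM1 (58.9 to 61.3) and CASC3 (55.6 to 59.0) overlapped, and by coverage RNPS1 was above EIF4A3 in 1 of 3 libraries only. The closest neighbours were PYM1 and CASC3, which differed by 3.32 ± 2.29 TPM (SD of the difference, n = 3).

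**Figure D1:**
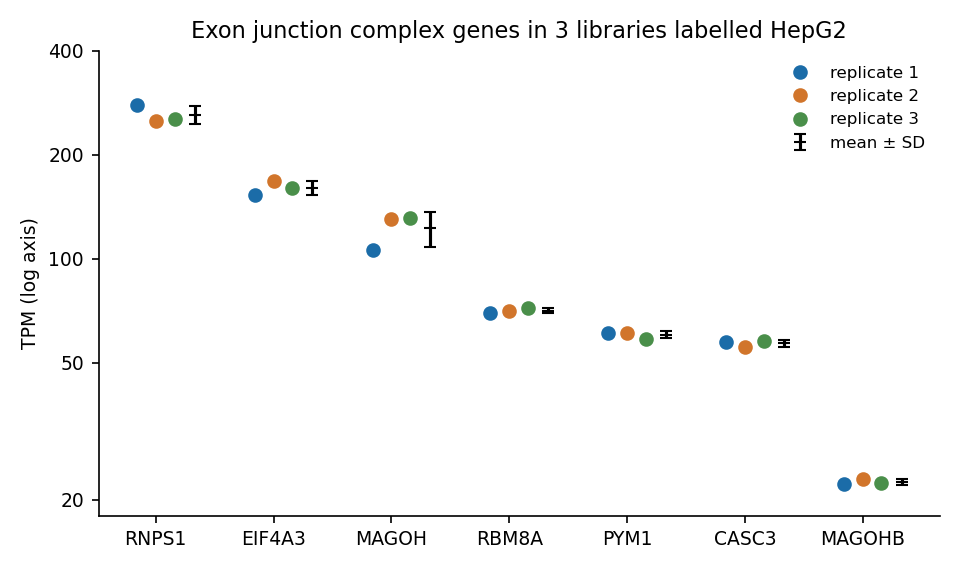
TPM on a log axis of the 7 exon junction complex genes, with 1 coloured point per library and the mean ± SD over 3 libraries in black. The points of RNPS1 lie between 251 and 279 TPM and those of MAGOHB between 22.2 and 23.0 TPM, and replicate 1 is the low point of MAGOH and the high point of RNPS1.

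The helicase EIF4A3 lies on the minus strand at chr17:80134369-80147128 and had 153, 167 and 160 TPM in replicates 1, 2 and 3. Its mean of 160 ± 7.39 TPM (SD, n = 3) was at percentile 93.5. The values were lowest in replicate 1 and highest in replicate 2. EIF4A3 was 4.91, 4.98 and 5.10 times as high as METTL3 in the same libraries, a log2 ratio of 2.28 ± 0.03 (SD, n = 3) on the log2(TPM + 1) scale.

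RBM8A, the RNA-binding-domain partner of MAGOH, lies on the minus strand at chr1:145921556-145927536 and had 69.5, 70.5 and 71.9 TPM. Its mean of 70.7 ± 1.23 TPM (SD, n = 3) was at percentile 84.4. Its coefficient of variation was 1.74%, the lowest of the members in TPM as deposited, and rose to 4.61% after median-of-ratios scaling, where PYM1 was lowest at 2.05%. The row overlaps GNRHR2 over 3786 bp and LIX1L-AS1 over 706 bp, both on the plus strand, and the strand setting of the quantification is not given in the sources used here. The overlapping rows were low, at 1.21 ± 0.366 TPM for GNRHR2 and 1.41 ± 0.269 TPM for LIX1L-AS1 (SD, n = 3). The MANE Select transcript of RBM8A has 4909 nt, of which 4326 nt follow the stop codon, and its annotated protein-coding transcripts run from 751 to 4909 nt, so its TPM also depends on the transcript length that was used, and this was not tested.

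MAGOH, on the minus strand at chr1:53226900-53238518, had 106, 130 and 131 TPM, and replicate 1 was below the other libraries. Its mean was 122 ± 14.4 TPM (SD, n = 3), at percentile 91.4. MAGOHB, on the minus strand at chr12:10604190-10613609, had 22.2, 23.0 and 22.4 TPM, a mean of 22.5 ± 0.414 TPM (SD, n = 3) at percentile 60.0. MAGOHB made up 17.3%, 15.0% and 14.6% of the summed TPM of the pair, so MAGOH gave most of the mRNA of the pair in every library. The processed pseudogene MAGOH2P, on the minus strand at chr17:10715943-10716582, was at 0.416, 0.144 and 0.433 TPM, or 0.270% of the mean of MAGOH.

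CASC3 was the only member on the plus strand, at chr17:40140506-40172172, and had 57.4, 55.4 and 57.5 TPM, a mean of 56.8 ± 1.19 TPM (SD, n = 3) at percentile 80.7. The row of the microRNA MIR6866 lies within CASC3 and was at no more than 0.696 TPM. PYM1, on the minus strand at chr12:55901413-55927894, had 60.8, 61.0 and 58.5 TPM, a mean of 60.1 ± 1.39 TPM (SD, n = 3) at percentile 81.8. These levels of the CASC3 and PYM1 mRNAs lay below that of RBM8A in every library.

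RNPS1, an RNA-binding factor that also takes part in splicing regulation, lies on the minus strand at chr16:2253116-2268412 and had 279, 251 and 254 TPM. Its mean of 261 ± 15.5 TPM (SD, n = 3) was at percentile 96.4, ranking it 495 of 13785 expressed genes. Replicate 1 was the highest library for RNPS1 and the lowest for EIF4A3, RBM8A, MAGOH and MAGOHB. A row on the opposite strand, LOC107984839, overlaps its 3′ end over 108 bp and was at 0.441 ± 0.0869 TPM (SD, n = 3).

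In the assembled complex EIF4A3, RBM8A and MAGOH or MAGOHB are present in equal numbers, so the mRNA levels of these subunits were compared within each library. EIF4A3 was 2.19, 2.37 and 2.23 times as high as RBM8A in TPM, a log2 ratio of 1.17 ± 0.06 (SD, n = 3). The summed TPM of MAGOH and MAGOHB was 128, 153 and 154, closer to that of EIF4A3, with a log2 ratio of EIF4A3 to the sum of 0.15 ± 0.10 (SD, n = 3). RBM8A was the lowest of these 3 positions in TPM, at 0.543, 0.461 and 0.468 of the summed TPM of MAGOH and MAGOHB. The log2 ratio was -1.02 ± 0.13 (SD, n = 3). Annotated protein-coding transcripts of RBM8A run from 751 to 4909 nt. Its place among the subunits thus also depends on the transcript length used, and this was not tested.

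MAGOH exceeded MAGOHB 4.77-, 5.66- and 5.85-fold in TPM, a log2 ratio of 2.38 ± 0.16 (SD, n = 3) on the log2(TPM + 1) scale. By coverage the ratio was larger, at 6.09, 7.28 and 7.43 in replicates 1, 2 and 3. The log2 ratio by coverage, taken without a pseudocount, was 2.79 ± 0.16 (SD, n = 3). By TPM with a pseudocount of 0.1 the mean log2 ratio was 2.43. Annotated protein-coding transcripts run from 319 to 2606 nt for MAGOHB and from 500 to 656 nt for MAGOH. The fold and the share of MAGOHB in the summed TPM thus also depend on the transcript lengths used, and this was not tested. CASC3 was at 0.377, 0.331 and 0.359 of the TPM of EIF4A3, a log2 ratio of -1.48 ± 0.09 (SD, n = 3). PYM1 was at 0.876, 0.865 and 0.814 of the TPM of RBM8A, a log2 ratio of -0.23 ± 0.06 (SD, n = 3). PYM1 and CASC3 were thus both below RBM8A, which was itself below EIF4A3, in every library.

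RNPS1 exceeded EIF4A3 1.83-, 1.50- and 1.58-fold in TPM, a log2 ratio of 0.70 ± 0.15 (SD, n = 3), but this order was not seen in the coverage. By coverage RNPS1 was at 1.13, 0.964 and 0.988 of EIF4A3 in replicates 1, 2 and 3, a log2 ratio of 0.04 ± 0.12 (SD, n = 3), so that the direction differed between libraries and the mean was smaller than the SD. All 8 ratios, which include EIF4A3 to METTL3, had the same direction in 3 of 3 libraries by TPM, and an exact permutation test that flips the signs of the log2 ratios (two-sided) gave p = 0.25 for every ratio, the smallest p that 3 libraries allow. This test therefore cannot pass a threshold of 0.05 with 3 libraries.

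**Figure D2:**
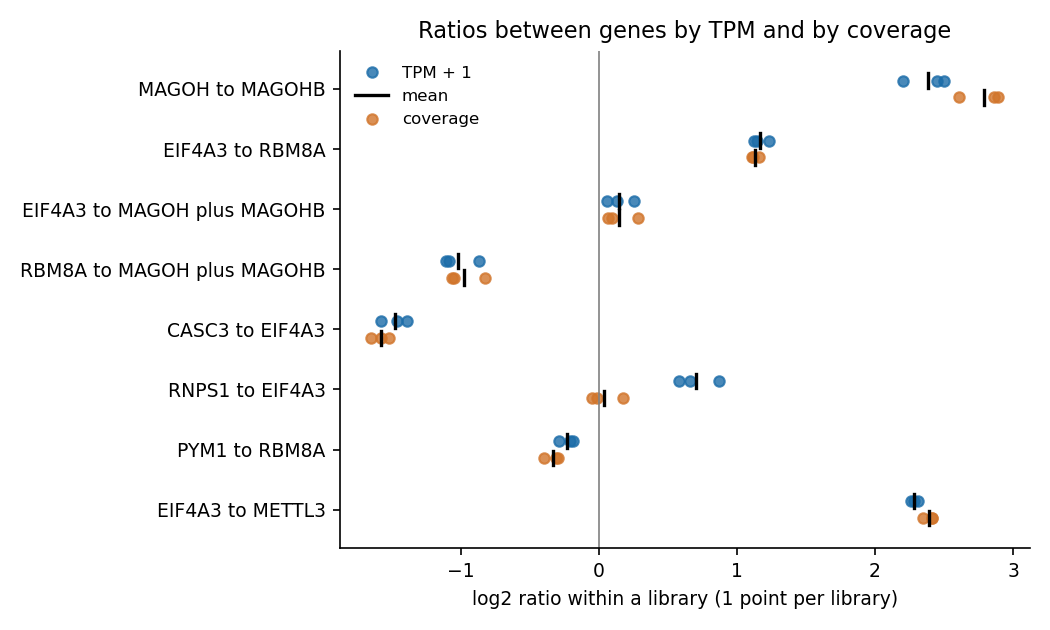
Log2 ratio between genes within a library, with 1 point per library and the mean as a black line. Ratios by TPM carry a pseudocount of 1 (blue) and those by coverage carry none (orange). RNPS1 to EIF4A3 moves from a mean of 0.70 by TPM to 0.04 by coverage, while the other 7 ratios stay on the same side of 0 in every library.

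The ratio of coverage to FPKM shows where the 2 measures part. MAGOH and RBM8A were at the highest ratio of their library, 1.00 in relative terms, and each has 1 curated RefSeq transcript. EIF4A3 and PYM1, with 2 each, were at a mean of 0.967 and 0.931, MAGOHB with 5 at 0.783, and RNPS1 with 6 at 0.607. CASC3 was at 0.908 with 1 curated transcript. A link between the number of transcripts and this ratio was not tested. The transcript counts come from the RefSeq table of GRCh38.p14 and the row limits of CASC3, MAGOHB, RBM8A and RNPS1 there differ from the deposited ones, so the annotation behind the tables may not have had the same transcripts.

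The spread between the libraries differed among the members and was widest for MAGOH. The range of log2(TPM + 1) over the 3 libraries was above 1 in 0 of the 7 genes, against 30 of the 8435 genes whose mean was 10 TPM or more, or 0.356%. At that background share a count of 0 among 7 genes says nothing about the members. The median coefficient of variation was 2.31% over the members and 4.88% over these 8435 genes in TPM as deposited, but 4.10% over both the members and all 8428 such genes after median-of-ratios scaling. A lower spread of the members thus did not hold under the other scaling. In TPM as deposited, RBM8A, MAGOHB, CASC3 and PYM1 ran from 1.74% to 2.31%, at percentiles 10.1 to 16.2. EIF4A3 at 4.61% and RNPS1 at 5.92% were near the middle, and MAGOH at 11.7% exceeded 94.5% of the genes.

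The value of MAGOH in replicate 1 sets this spread, since replicates 2 and 3 were at 130 and 131 TPM. MAGOHB did not show a like gap, with all 3 libraries between 22.2 and 23.0 TPM. After median-of-ratios scaling, which lowered replicate 1 by a factor of 1.03, MAGOH still had the highest coefficient of variation of the members at 14.3%, and MAGOHB and EIF4A3 rose to 4.10% and 6.85%. RNPS1 moved the other way, from 5.92% to 3.40%.

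**Figure D3:**
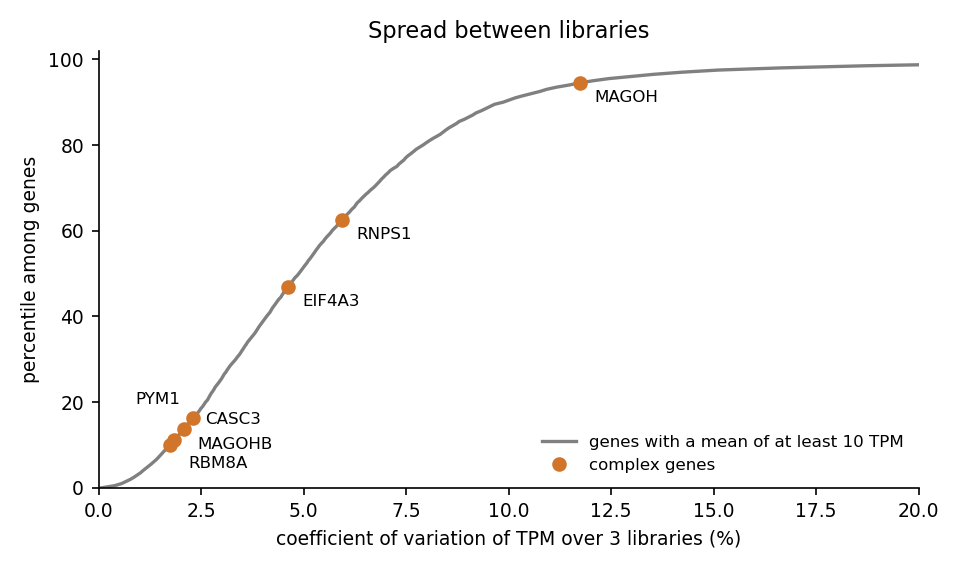
Coefficient of variation of TPM over 3 libraries (x axis, %) against its percentile among the 8435 genes whose mean was 10 TPM or more (y axis), with the 7 complex genes in orange. Of these, 4 lie between 1.74% and 2.31%, and MAGOH lies at 11.7%.

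The complex works with other factors, and all 26 genes of the partner lists reached 10 TPM in each library. By mean TPM, EIF4A3 ranked 900 of 13785 expressed genes, so most expressed genes also lay below it. The partner counts against EIF4A3 that follow are to be read beside that share. CWC22, the splicing factor that brings EIF4A3 to the spliceosome, had 12.8 ± 0.712 TPM, and CWC27 had 34.9 ± 2.33 TPM (SD, n = 3), both below EIF4A3 in every library. Their order turned by coverage, where CWC22 was at 72.1 ± 8.73 and CWC27 at 4.11 ± 0.271 (SD, n = 3), and the ratio of coverage to FPKM of CWC27 was 0.0197 of the library maximum. The ASAP and PSAP complexes join RNPS1 to SAP18 and either ACIN1 or PNN. These 3 partners had means from 62.1 TPM for SAP18 to 88.6 TPM for PNN, each below the 251 TPM that was the lowest value of RNPS1.

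The nonsense-mediated decay factors that meet the complex were UPF1, UPF2, UPF3A and UPF3B. The helicase UPF1 was the highest at 66.0 ± 0.964 TPM and the bridging factor UPF2 the lowest at 13.6 ± 1.04 TPM (SD, n = 3). UPF3B, which contacts the complex directly, had 47.0 ± 1.15 TPM, and its paralog UPF3A had 49.7 ± 1.89 TPM (SD, n = 3). By coverage they were further apart, with UPF3B at 210 ± 15.4 and UPF3A at 112 ± 5.60 (SD, n = 3). All 4 were below EIF4A3, and also below the summed TPM of MAGOH and MAGOHB, in every library.

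The 14 mRNA export factors had means from 18.1 TPM for THOC1 to 254 TPM for ALYREF, with a median of 61.5 TPM. ALYREF, an adaptor that binds the complex, and the export helicases DDX39A and DDX39B were above EIF4A3 in 3 of 3 libraries, and the other 11 were below it in all 3. By coverage DDX39A, at 724 ± 31.8 (SD, n = 3), was below EIF4A3 at 922 ± 58.6 in 3 of 3 libraries, while ALYREF and DDX39B stayed above. IPO13, the importin that returns the RBM8A-MAGOH heterodimer to the nucleus, had 22.7 ± 0.222 TPM (SD, n = 3). Among the relatives of EIF4A3, EIF4A1 had 1103 ± 4.92 TPM and EIF4A2 had 179 ± 3.37 TPM (SD, n = 3), both above EIF4A3 in every library. Each window of 150 bases of the EIF4A1 transcript also lies in an annotated transcript of another gene, 1318 of 1609 in the read-through gene SENP3-EIF4A1 and 1292 in ENSG00000264772, so the level of EIF4A1 is uncertain.

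**Figure D4:**
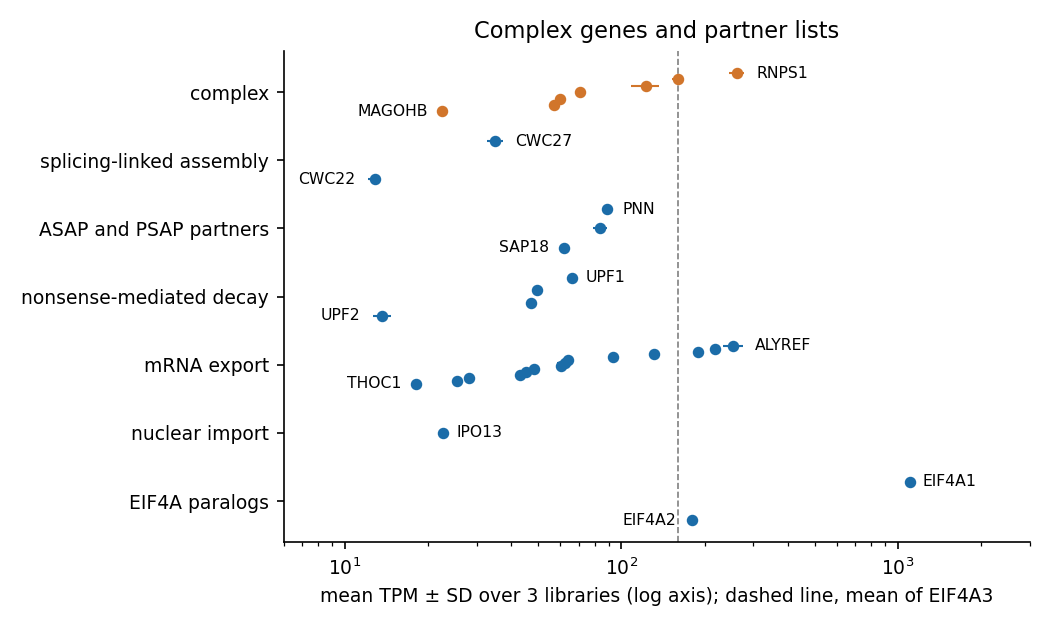
Mean TPM ± SD over 3 libraries on a log axis for the 7 complex genes (orange) and 26 genes of 6 partner lists (blue), with the lowest and highest gene of each list named and the mean of EIF4A3 as a dashed line. Of the 26 partners, 5 lie above EIF4A3 in every library and 21 below by TPM, and 4 above and 22 below by coverage. EIF4A3 ranks 900 of 13785 expressed genes by mean TPM, so most expressed genes also lie below it.

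The mRNAs of the members are themselves spliced and could carry the complex. Their MANE Select transcripts have from 2 exon junctions in PYM1 to 13 in CASC3, with 11 in EIF4A3, 7 in RNPS1, 5 in RBM8A and 4 each in MAGOH and MAGOHB. In 6 of the 7 the stop codon lies in the last exon, downstream of every junction. CASC3 is the exception, with its stop codon ending 41 nt upstream of the last junction. Whether decay acts on this CASC3 transcript was not tested. Of the 75 annotated transcripts of the 7 genes, 8 are classed as targets of nonsense-mediated decay, of which MAGOHB has 5, CASC3 has 2 and RNPS1 has 1. The tables give 1 value per gene, so the share of these transcripts in the TPM was not analysed here.

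The gene outside these lists with the most similar level in the 3 libraries was found for each member by the largest absolute difference of log2(TPM + 1). PYM1 was matched by KCNN4 within 0.010, MAGOHB by CLDN7 within 0.014, CASC3 by PPA2 within 0.017, RNPS1 by YWHAB within 0.019, EIF4A3 by CSTB within 0.023, RBM8A by MIR4435-2HG within 0.028 and MAGOH by BLOC1S1 within 0.046. Between 10 genes, for MAGOH, and 137 genes, for PYM1, lay within 0.1 on this scale. Levels in 3 libraries of 1 condition thus place each member among many genes.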

How the data were processed

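RNA was sequenced in 3 libraries labelled wild-type HepG2. Paired-end reads of 150 bp were filtered by the authors (FastQC 0.11.8, Trim Galore 0.6.2) and mapped to GRCh38 with STAR 2.6.1a. StringTie is also listed in the submitters' processing notes. Its version, the annotation and the strand setting are not given in the sources used here. The deposited tables hold coverage (a signal of mean depth, unscaled), FPKM and TPM per gene, from the authors. No counts were used, so errors are the SD over 3 libraries.

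Table rows were matched by name, strand and coordinates. The members and lists were chosen with earlier results of these data known. Named genes were the members, METTL3, the lowest and highest gene of each partner list, EIF4A3 paralogs, overlapping rows, copies and the nearest gene in level. UPF3A, UPF3B, DDX39A and DDX39B were named after their values were seen. Ratios used log2(TPM + 1) and an exact sign-flip permutation test (two-sided). The ratios by coverage given for each library, and their mean and SD, had no pseudocount. Relative coverage per FPKM was set against the highest value in each library among genes above 1 FPKM. The range calculation was run on simulated data with changes far above its threshold and even noise, which checks the code only. Sequences and gene models came from GENCODE v44 on GRCh38. Alternatives were leaving out each replicate, a pseudocount of 0.1, FPKM or coverage, other minimum levels, scaling without mitochondrially encoded genes and median-of-ratios scaling. Python 3.11.15, numpy 2.4.6, pandas 2.3.3, Biopython 1.88 and matplotlib 3.10.9 were used.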

Additional observations from a re-analysis of the deposited data

How the results depend on the processing

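There were no groups of samples to compare or pair, with all libraries in 1 condition. Genes were compared within each library, so the 8 ratios were paired by library. Scaling without mitochondrially encoded genes, which took 19.9% to 20.2% of the TPM, raised the means to 200.3 TPM for EIF4A3, 88.4 for RBM8A, 153 for MAGOH, 28.2 for MAGOHB, 71.1 for CASC3, 327 for RNPS1 and 75.2 for PYM1. These are rises by nearly 1 factor, so the order of the members is kept by construction. The 8 log2 ratios kept the direction of their mean by coverage. RNPS1 to EIF4A3 was then closest to 0, at a mean of 0.04 and above 0 in replicate 1 only. The direction was also kept with a pseudocount of 0.1, with FPKM and with each replicate left out, but none of these could turn it. All libraries had the same direction for a given ratio by TPM, and a pseudocount keeps the order of values. FPKM and TPM differ by 1 factor within a library. With a replicate left out, the ratio of RNPS1 to EIF4A3 ranged from 0.62 to 0.76, and that of EIF4A3 to MAGOH plus MAGOHB from 0.09 without replicate 1 to 0.19 without replicate 3. The mean of MAGOH was 131 TPM without replicate 1, and 118 or 119 TPM without another. Genes with a range above 1 numbered 30, and 182 with a minimum mean of 1 TPM. They ranged from 10 without replicate 2 to 23 without replicate 3, and fewer libraries can only lower a range. No member was among them under any of these settings. The percentiles of all 7 members rose with a minimum of 0.1 TPM or with none. This rise is by construction, since a lower minimum only adds genes that lie below every member. Settings chosen after seeing the data were coverage for the partner genes, which left 4 in place of 5 above EIF4A3, and median-of-ratios scaling for the spread of the members, whose median coefficient of variation moved from 2.31% to 4.10%, and for their order, where 1 of 6 neighbouring pairs then overlapped. By coverage the percentiles rose for 6 members and fell for RNPS1, from 96.4 to 95.2.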
